A study of Drosophila melanogaster with 2 samples.

Results

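The 8 Sox genes of Drosophila melanogaster examined here, SoxN, D, Sox14, Sox15, Sox21a, Sox21b, Sox100B and Sox102F, were followed through the Onecut binding peaks of whole embryos, among 13945 protein-coding genes on the chromosome arms. They were taken by name, and a peak was given to a gene when its summit, the position of highest signal, lay between 1 kb upstream of the gene and the gene's end. Intergenic summits up to 10 kb from either end were described as flanks. The genes were chosen by values of this experiment, the summits and signals in its thresholded lists, so the peak counts and heights below are a description and carry no test.

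The experiment was a transcription factor ChIP-seq, in which chromatin held by a chosen protein is precipitated and its DNA sequenced. The flies were the strain onecut-GFP, with an insertion that gives a fusion of Onecut to the green fluorescent protein eGFP, and an antibody against GFP was used. How the fusion gene is driven is not given in the sources used here. Both libraries, labelled as biological replicates 1 and 2, carried the fusion and came from embryos collected over 0 to 24 hours, so all tissues and stages were mixed and the design held 1 group. In such a mixture, binding in few cells and weak binding in many cells cannot be told apart.

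Sox proteins are transcription factors that bind the minor groove of DNA through an HMG box and bend it. In flies the group B genes SoxN and D act together in the early neuroectoderm, where they are needed for the formation of neural stem cells, the neuroblasts. Onecut carries a cut domain and a homeodomain, is a protein of the embryonic nervous system and photoreceptors, and recognises the related cores ATCGAT and ATTGAT.

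Sequences under Sox summits of SoxN, D, Sox21a and Sox21b, Sox100B and Sox102F are shown first because the presence and place of the core set them apart from each other. Each is the plus strand, 5′ to 3′, of Release 6 of the genome (dm6) from RefSeq, with each ATCGAT or ATTGAT core in capitals, in either direction, so that ATCAAT is ATTGAT on the minus strand. The window of D is cut to 26 bases because it lies in a 5′ UTR, and each of the others reaches 50 bases to either side of the summit.
SoxN promoter, chr2L:8825267-8825367: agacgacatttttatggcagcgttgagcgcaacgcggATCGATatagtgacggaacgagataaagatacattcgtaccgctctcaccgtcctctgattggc
SoxN upstream, chr2L:8821643-8821743: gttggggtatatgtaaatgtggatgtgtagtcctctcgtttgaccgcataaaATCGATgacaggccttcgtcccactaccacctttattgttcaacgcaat
D transcribed region, chr3L:14177973-14177998: gcgggagcacATTGATtttcgcacag
D downstream, chr3L:14174365-14174465: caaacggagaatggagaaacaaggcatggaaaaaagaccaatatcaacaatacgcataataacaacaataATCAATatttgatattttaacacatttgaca
Between Sox21a and Sox21b, chr3L:14111578-14111678: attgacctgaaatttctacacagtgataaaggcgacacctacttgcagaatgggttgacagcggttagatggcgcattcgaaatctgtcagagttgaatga
Sox100B upstream, chr3R:31061481-31061581: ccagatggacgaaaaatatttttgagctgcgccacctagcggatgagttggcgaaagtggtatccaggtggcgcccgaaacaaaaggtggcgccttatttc
Sox100B promoter, chr3R:31064842-31064942: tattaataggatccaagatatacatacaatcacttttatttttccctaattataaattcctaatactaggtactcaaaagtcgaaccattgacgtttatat
Sox102F promoter, chr4:835017-835117: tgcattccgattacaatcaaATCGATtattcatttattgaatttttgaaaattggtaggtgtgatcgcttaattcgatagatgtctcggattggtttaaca
Sox102F intron near the inner start site, chr4:807463-807563: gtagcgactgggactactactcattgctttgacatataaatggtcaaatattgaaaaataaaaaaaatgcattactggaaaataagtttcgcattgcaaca
Sox102F intron farther upstream, chr4:808096-808196: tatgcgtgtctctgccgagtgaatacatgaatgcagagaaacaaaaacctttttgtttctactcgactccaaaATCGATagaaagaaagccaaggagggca

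A core was present in both SoxN windows, in the D windows shown, and in 2 of the 3 Sox102F windows. It was absent from the Sox102F window near the inner start site and from both Sox100B windows, one at the promoter and one in the flank, and from the window between Sox21a and Sox21b. Summits without a core thus lay in gene spans as well as in flanks.

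In the list made from both replicates and cut at the authors' threshold, 5 of the 8 Sox genes held a summit, and these genes held 7 summits in all. SoxN, D, Sox14 and Sox100B had 1 each and Sox102F had 3. Sox15, Sox21a and Sox21b had none. Of all protein-coding genes, 31.3% held a summit by the same assignment, and long genes did so more often. Among genes of 2167 to 4998 bp, the length class of SoxN, D and Sox21a, the share was 32.3%. Among genes of 4999 bp or more, which includes the other 5 members, it was 57.5%. With 8 genes chosen in view of these peaks, nothing is read from their count beside these shares.

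Peak height here is the signal the authors deposited, in a unit the sources do not name. Heights were therefore compared only inside 1 list, and the read depth behind them is unknown. The threshold is an irreproducible discovery rate (IDR) of 0.01, a measure of how well a peak keeps its rank between inputs. The list of both replicates holds 6755 peaks with a median signal of 148.9, that of replicate 1 holds 5133 with a median of 81.4 and that of replicate 2 holds 6023 with a median of 92.8. Of the 6755 peaks, 70.4% overlapped a peak past the threshold in replicate 1, 78.3% did so in replicate 2 and 62.2% in both.

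SoxN (FBgn0029123, 2L, 8825645 to 8829670, plus strand) is a short gene of 4026 bp with a single annotated start site and stands far from its neighbours. The closest other protein-coding gene, CG32986, lies 33106 bp away. Its main peak ran from 8825118 to 8825598 with the summit at 8825317, which is 328 bp upstream of the start site. The signal was 817.3 in replicate 1, where it ranked 21, and 1220.9 in replicate 2, where it ranked 16. In the list of both replicates it was 2023.5, rank 16 of 6755 and 13.6 times the list's median. The height was thus near the top of all 3 lists. The replicate summits lay 5 bp to the left and 6 bp to the right of that in the list of both. The peak was 481 bp wide, and only 89 peaks in the list were wider, whereas 54.5% of the peaks had 1 common width of 436 bp.

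The SoxN peak also stood alone on its gene. The span from 1 kb upstream to the gene's end held 5026 bp and exactly 1 ATCGAT, which was the one under the summit, 13 to 8 bp to the left of it, and no ATTGAT. In the list of both, the other ranked peak in the span, in the coding exon, had a signal of 21.5 and was not past the threshold. Replicate 1 had no ranked peak in that exon, and its other span peak, with 11.1, missed the threshold. In replicate 2 the span held 2 other ranked peaks below the threshold, the higher with 30.4. A second peak past the threshold lay 3952 bp upstream. It had a signal of 52.9 in replicate 1, 58.1 in replicate 2 and 107.2 in the list of both, where it ranked 5005, and its ATCGAT began 2 bp from the summit. A downstream peak 5432 bp past the gene's end had a signal of 101.7 in the ranked list of both but an IDR of 0.374, so it was not in the thresholded list. Its summit was at 8835102. Of the peaks overlapping it, 1 of 46.8 in replicate 1, with its summit at 8834954, passed the threshold there, with an IDR of 0.009. Another of 18.2 in replicate 1, with its summit at 8835178, did not, with an IDR of 0.485. The peak of 49.6 in replicate 2 did not pass either, with an IDR of 0.0246.

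By signal, the promoter peaks next to that of SoxN in the list of both belonged to genes of other families. Above it stood the peaks at capu, an actin-nucleating formin, with 2123.9, and CG5746, with 2045.5. Below it stood CG9368 with 1965.1 and lute, a BTB-domain gene, with 1949.8. These summits lay 6 to 480 bp from the start site, and each window held a core, as that of SoxN did. Of all summits within 500 bp of a protein-coding start site, whatever their height, 36.6% had one. In replicate 1 the 4 neighbours ranked from 14 to 29 and in replicate 2 from 12 to 23.

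D, also called Dichaete (FBgn0000411, 3L, 14175610 to 14178620, minus strand), is the group B partner of SoxN and also acts in segmentation and in the cells of the ventral midline. Its 1 summit, at 14177976, lay in the 5′ UTR of the longer transcript, 439 bp upstream of the inner start site at 14177537. The signal was 44.7 in replicate 1, below the threshold there, 79.1 in replicate 2 and 115.1 in the list of both, rank 4622. Among the 4362 genes with a summit, ordered by their highest peak, D ranked 3463 while SoxN ranked 21. The pair of neuroectoderm genes thus sat far apart in the order. The D window held an ATTGAT beginning 7 bp from the summit. It also held 4 matches to GAGAG, the core bound by GAGA factor, and some of these overlapped each other.

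Downstream of D, 2 more intergenic summits passed the threshold in the list of both. The nearer, 1195 bp past the gene's end, had a signal of 54.9 in replicate 1, 85.7 in replicate 2 and 147.3 in the list of both, rank 3426, so it was higher than the peak in the gene. The farther, 2964 bp past the end, had 46.8 in replicate 1 and 41.3 in replicate 2, past the threshold in neither, and 86.1 in the list of both. The overlapping replicate 1 peak had its summit 167 bp away. That summit was nearer to a separate ranked summit of the list of both, with 62.6, which missed the threshold. The windows of the 2 summits past the threshold each held both a core and AACAAT, a core that Sox proteins themselves bind. So did the window in the gene. Upstream of D, no ranked peak of the list of both was found up to 10 kb.

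Sox21a (FBgn0036411, 3L, 14103481 to 14108118, minus strand), known for its role in adult intestinal stem cells, and Sox21b (FBgn0042630, 3L, 14112405 to 14131324, minus strand) are group B genes that lie 4287 bp apart, and D follows 44286 bp beyond Sox21b. Neither held a summit past the threshold in the list of both. A single intergenic peak past the threshold lay between them, at 14111628, which is 777 bp past the end of Sox21b and 3510 bp upstream of Sox21a. Its signal was 124.4 in replicate 1, 59.8 in replicate 2 and 173.0 in the list of both, rank 2770. It ranked 1429 of 5133 in replicate 1 and 5102 of 6023 in replicate 2, high in one list and low in the other. A weaker peak 543 bp upstream of Sox21b, with a signal of 76.7 and an IDR of 0.0132, missed the threshold in the list of both and passed it in the list from pooled data. The pooled list, in which 32.3% of all protein-coding genes held a summit, thus had 6 of the 8 members.

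**Figure D1:**
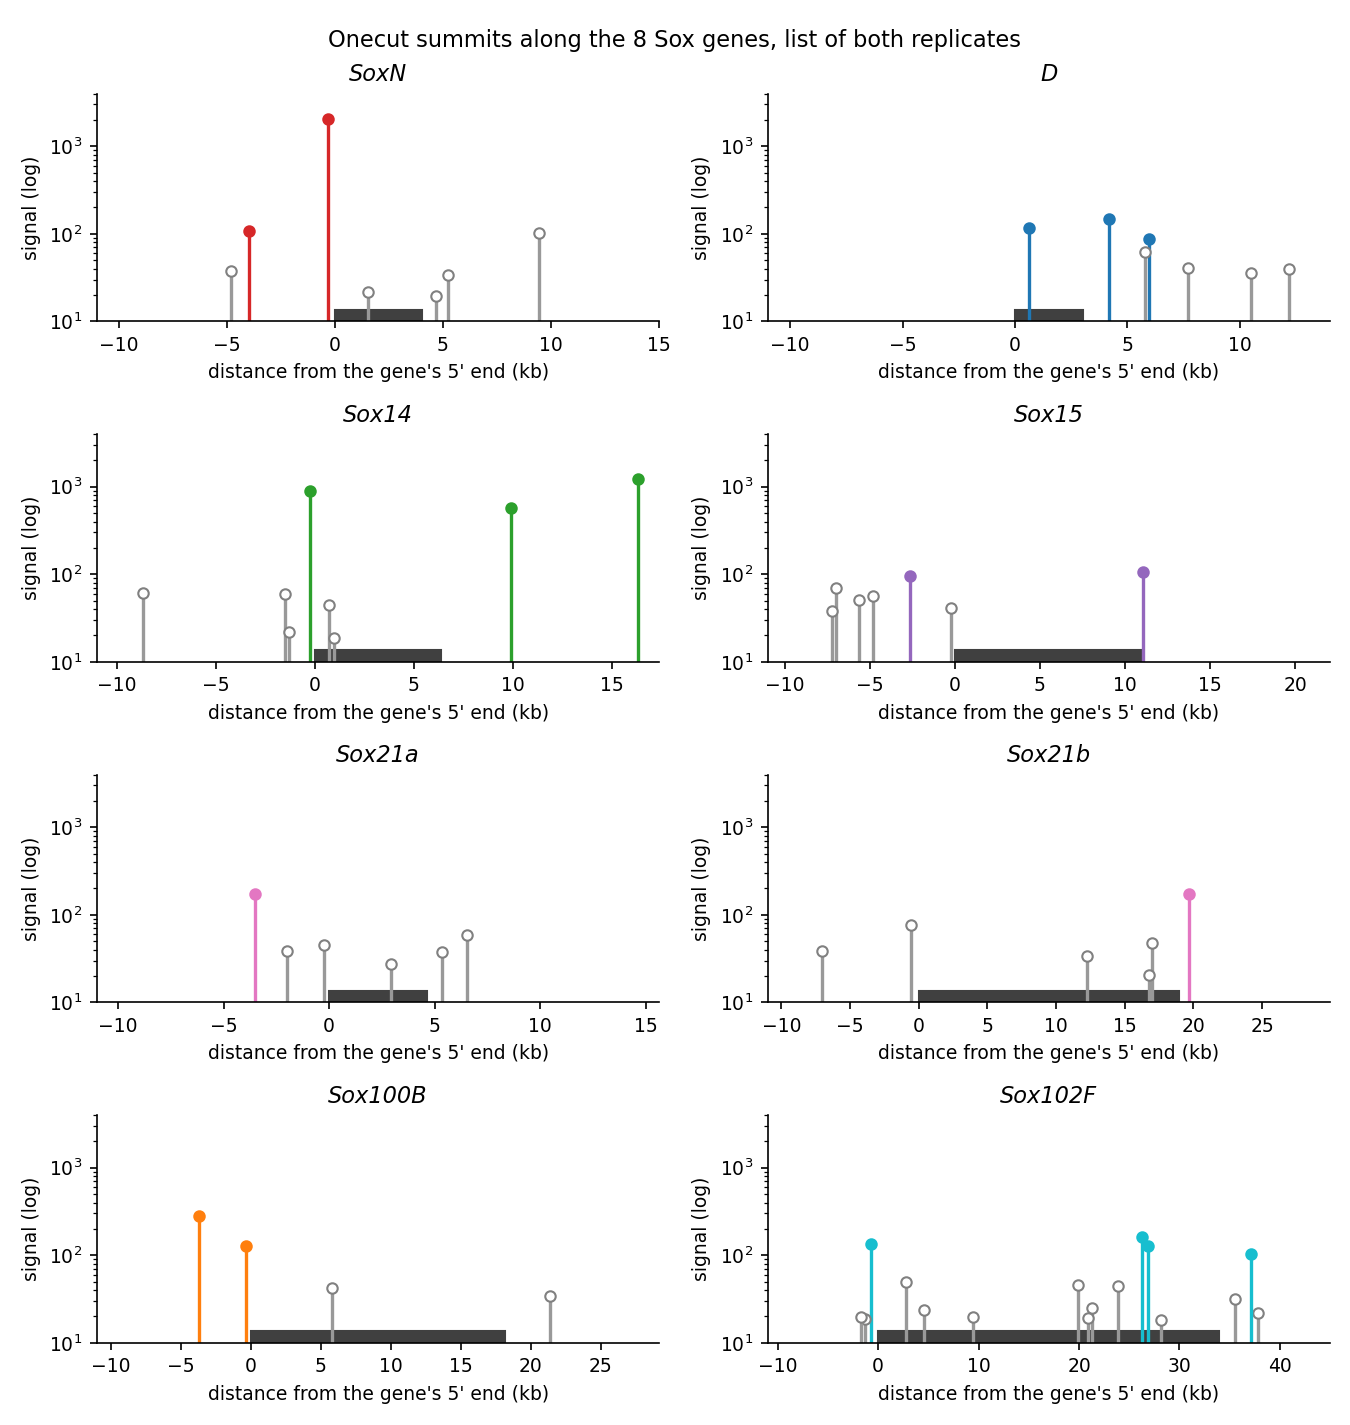
Ranked summits of the list of both replicates along the 8 Sox genes and their intergenic flanks, with the distance from the gene's 5′ end in kb on the horizontal axis and the deposited signal on a log axis. Filled, coloured points passed the IDR threshold, open grey points did not, the dark bar is the gene, and the peak between Sox21a and Sox21b is drawn in both of their panels; the SoxN promoter peak, at 2023.5, is the highest point.

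Sox14 (FBgn0005612, 2R, 23978801 to 23985177, plus strand), a group C gene that responds to the steroid hormone ecdysone and acts in the pruning of neurons at metamorphosis, had the second strongest gene peak of the family. Its summit at 23978539 lay 262 bp upstream of the start site. The signal was 425.4 in replicate 1, rank 132, and 465.7 in replicate 2, rank 239, and 891.9 in the list of both, rank 188. The peak was thus far above the median in every list. An ATTGAT lay under it, 18 bp to the left of the summit.

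Both flanking peaks of Sox14 stood at the start sites of other genes. One, with a signal of 180.3 in replicate 1, 392.7 in replicate 2 and 578.2 in the list of both, lay 31 bp from a start site of Pask, a protein kinase gene. The other, with 393.3, 808.9 and 1224.3 in the same order, lay 45 bp from that of CG3860 and 9923 bp past the end of Sox14, just inside the 10 kb bound. The nearest one outside that bound, 10916 bp upstream, had a signal of 162.2. The higher flank peak thus exceeded the peak at Sox14 in the list of both and in replicate 2, and fell below it in replicate 1.

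Sox15 (FBgn0005613, 2R, 14201390 to 14212413, minus strand), a group F gene known from the socket cells of sensory bristles, held no peak past the threshold. A ranked peak 213 bp upstream of its start site had a signal of 41.6 in the list of both, with an IDR of 0.649. Intergenic peaks past the threshold lay 40 bp beyond its end and 2612 bp upstream. The first had signals of 45.3 in replicate 1, 62.9 in replicate 2 and 106.1 in the list of both, and lay in front of VGAT, the gene of the vesicular GABA transporter. The second had 49.1, 45.5 and 94.7, was not past the threshold in replicate 2 and held no core. A stronger peak, of 332.8 in the list of both, lay farther upstream but inside RpS23, a ribosomal protein gene, 14 bp from its start site.

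Sox100B (FBgn0024288, 3R, 31065253 to 31083407, plus strand), the group E gene of flies and a gene of testis development, had a summit 361 bp upstream of its start site. The signal was 46.2 in replicate 1, below the threshold, 79.8 in replicate 2 and 128.5 in the list of both, rank 4064, and the window held no core. A higher peak stood 3722 bp upstream, 321 bp from the start of dco, a casein kinase 1 gene. Its signal was 181.2 in replicate 1, rank 804, 98.9 in replicate 2, rank 2751, and 281.6 in the list of both, rank 1401. It was narrow, with 190 bp, and its window held no core.

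Sox102F (FBgn0039938, 4, 800436 to 834393, minus strand), the group D gene, is the longest member with 33958 bp and 3 annotated start sites. One summit lay 674 bp upstream of the outermost start site, with 49.3 in replicate 1, below the threshold, 89.8 in replicate 2 and 133.7 in the list of both. Near the inner start site at 807347, a pair of summits lay 166 and 799 bp upstream of it, in an intron of the longer form. The first had 73.8 in replicate 1, 58.1 in replicate 2 and 127.0 in the list of both. The second had 41.8, 123.9 and 163.4. Their order was reversed between the replicates, the first being the higher in replicate 1 and the second in replicate 2. The 3 peaks thus stood near 2 start sites, while the introns held 8 more ranked peaks between 18.4 and 49.1, none past the threshold. In the downstream flank a peak with a signal of 102.1, past the threshold in neither replicate, lay in an annotated copy of the transposon INE-1, a repeat present in many copies. Whether its reads were unique to this copy was not tested.

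**Figure D2:**
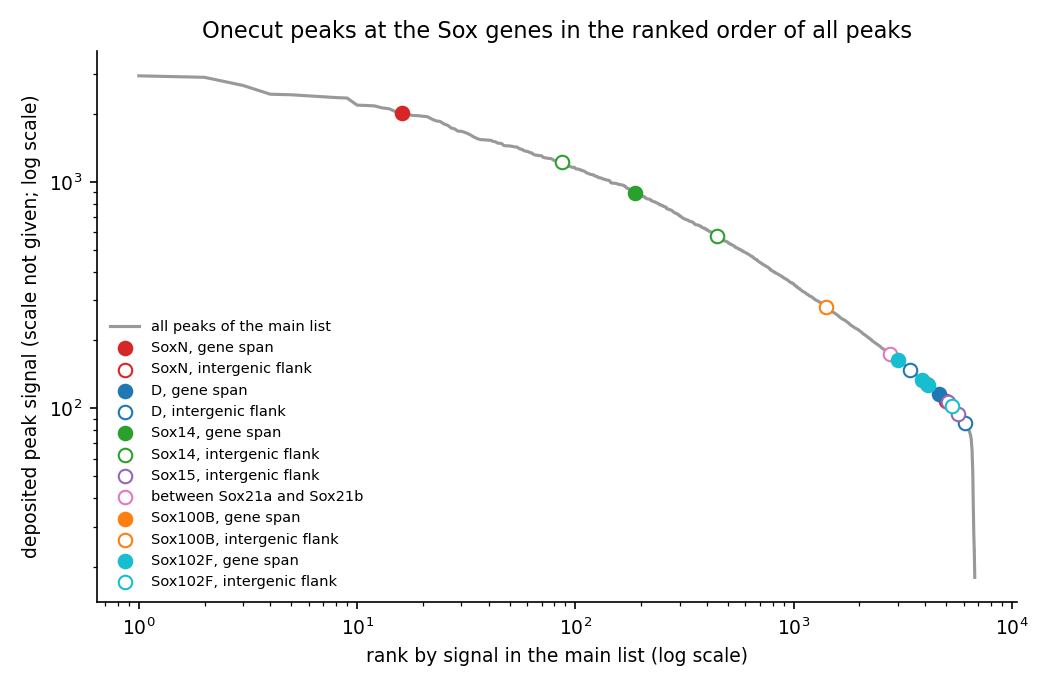
Deposited signal of each peak in the list of both replicates against its rank, both on log axes, with all peaks as the grey line. Filled points are summits in the Sox gene spans and open points their intergenic flanks; SoxN stands at rank 16 and Sox14 at rank 188, and the other 5 span summits lie between ranks 2996 and 4622, partly hidden behind each other.

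Over the 17 sites, 7 in the spans and 10 in intergenic flanks, 12 passed the threshold in replicate 1, 14 in replicate 2, 11 in both and 2 in neither. The 7 span summits all passed it in replicate 2 and 4 of them in replicate 1. In replicate 1 alone 3 of the 8 genes, SoxN, Sox14 and Sox102F, held a summit past the threshold, where 26.2% of all protein-coding genes did. In replicate 2 alone the same 5 genes as in the list of both held one, where 28.6% of all genes did. D and Sox100B thus passed the threshold in replicate 2 and not in replicate 1. The summits of the replicates lay within 46 bp of that of the list of both at the 7 span sites and within 167 bp at all 17.

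**Figure D3:**
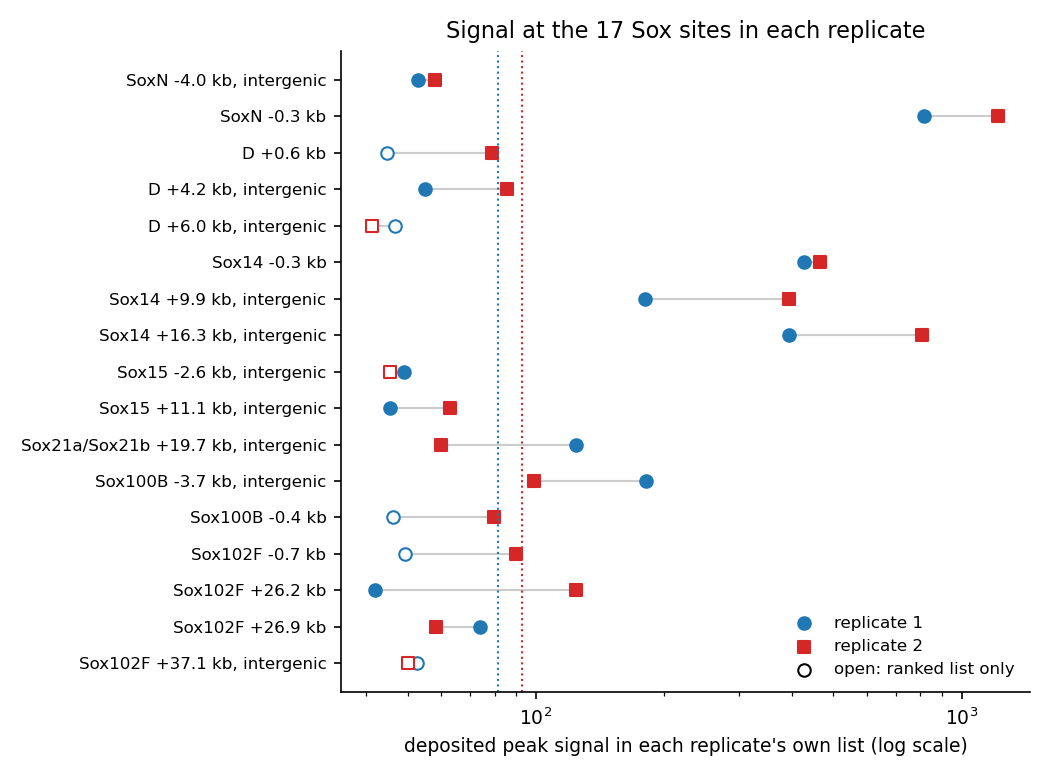
Deposited signal of the 17 Sox sites in the lists of replicate 1 (circles) and replicate 2 (squares), on a log axis; filled symbols passed the threshold in that replicate, open ones did not, and dotted lines mark the median of each replicate's thresholded list. The SoxN promoter, at 817.3 and 1220.9, and the 3 Sox14 sites stand above both medians in both replicates, as does the peak upstream of Sox100B, and most other sites lie below them.

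Beside SoxN and Sox14 the heights were near the list's median. Of the 7 span summits, 3 were above the list's median signal, at SoxN, at Sox14 and in the intron of Sox102F, the last by a small margin (163.4 against 148.9). The median of the highest peak over the 5 genes was 163.4, and over all 4362 genes with a summit it was 191.5. Closest to the threshold among span summits were the intron peak of Sox102F, inside with an IDR of 0.00332, and the peak upstream of Sox21b, outside with 0.0132. For the bound of 1 kb, the farthest summit inside was that at 674 bp upstream of Sox102F, and the nearest outside was that at 2612 bp upstream of Sox15.

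Below the threshold, the ranked lists gave a summit to all 8 genes. There were 26 summits in the list of both, 28 in that of replicate 1 and 32 in that of replicate 2. These long lists assign a summit to 56.3%, 59.0% and 60.8% of all protein-coding genes in the same order. In the ranked list of both, each of the 8 genes had a summit within 1 kb upstream of one of its annotated start sites, which 46.3% of all genes had. In the thresholded list 5 of the 8 genes had one, against 22.9% of all genes. This count was made after the values were seen. Both shares cover genes of every length and any number of start sites. Sox14 and Sox102F have 3 start sites each, and no member is shorter than 2167 bp, so the shares are not matched to the members. The promoter peaks at Sox15 and Sox21a were weak, with 41.6 and 45.4, close to the ranked list's median of 40.2.

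The Onecut core was then counted on both strands of windows reaching 50 bp to either side of each summit. It was found in 5 of the 7 span windows (71.4%, 95% Wilson interval 35.9 to 91.8) and in 7 of the 10 flank windows. In all, 12 of 17 held it (70.6%, 46.9 to 86.7), against 38.2% (37.1 to 39.4) of the 6747 summits on the arms, whatever their height. It was in 10.5% of 12615 windows set 1000 bp to either side of those summits, without the windows that overlapped a peak of the list. These intervals cover counting error only, and windows of 1 gene are not independent of each other. The Sox genes were chosen in view of their peaks, and 4 of the flank summits lay within 500 bp of another gene's start site. Nothing is therefore read from the share of the Sox windows beside that of all summits. ATCGAT alone was in 8 of 17 Sox windows and 21.2% of all, and ATTGAT in 5 of 17 and 19.1%. In windows of 51 bp the span count fell to 42.9%, since the cores of 2 span summits, in the intron and upstream of Sox102F, reached beyond 25 bp from the summit.

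Most cores in the Sox genes were not under a peak. The 8 spans held 37 copies of ATCGAT, of which 3, or 8.11%, lay in a window around a thresholded summit, and 98 copies of ATTGAT, of which 2, or 2.04%, did. Over the whole arms, with all intergenic sequence, the shares were 3.69% and 1.18%. The spans are of genes chosen in view of their peaks, so the bases are unlike and nothing is read from the difference. Sox102F had 22 copies of ATCGAT, 2 of them under a summit, and 38 of ATTGAT, none of them under one. Sox100B had 4 of ATCGAT and 21 of ATTGAT, and its only span summit lay at none of them. SoxN was the one member whose every core was under a summit, with its single copy.

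Each of the other motifs was in fewer Sox windows than the Onecut core in either form. AACAAT was in 5 of 17 Sox windows, 3 of them at D, and in 10.1% of all summits and 1266 of the 12615 flanking windows, while ACAAAG, another core of the HMG-box proteins, was in 0 of 17 and 7.1%. TATCGATA, the promoter element DRE, which contains ATCGAT, was in 0 of 17 and 1.79% of all, so the SoxN core was not of that form. GAGAG was in 4 of 17 and 15.3%. After the windows had been seen, TGGCGC, part of the motif of the fly insulator protein CTCF, was also counted. It was in 4 of 17, which include the peak between Sox21a and Sox21b and the narrow peak upstream of Sox100B, and in 5.91% of all summits and 4.3% of the flanking windows. A match is a string of letters and does not show that a factor binds.

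**Figure D4:**
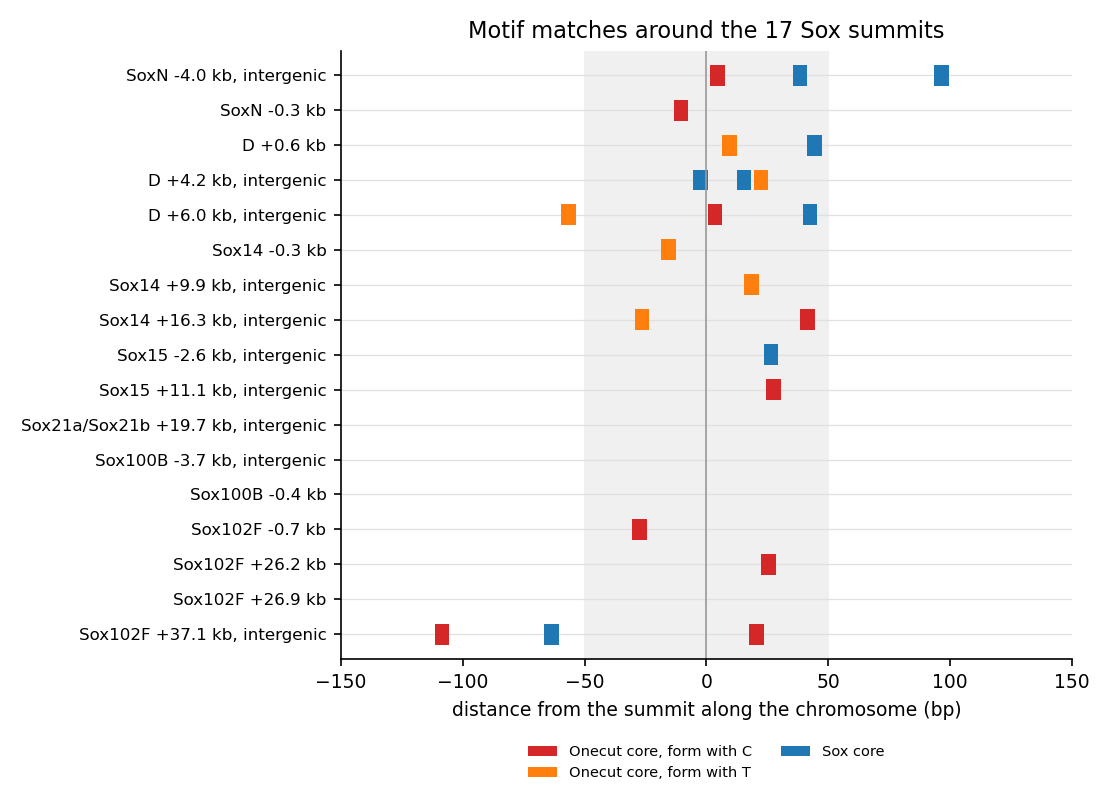
Matches to ATCGAT (Onecut core, form with C), ATTGAT (form with T) and AACAAT (Sox core) around the 17 Sox summits, by distance from the summit in bp; the grey band reaches 50 bp to either side. A core lies in the band at 12 of the 17 sites, and both SoxN sites have theirs within 13 bp of the summit.

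Genes that work with the group B Sox factors were read from a list of 24 ordered by role. A summit past the threshold in the list of both was held by 10 of them, or 41.7%, and by 8 of the 12 members in the longest length class, beside the 31.3% and 57.5% given above for all genes. Among the 9 genes of neuroblasts 5 held one, and in each replicate alone 2 did, brat and pros. The highest peak was at brat, a translational repressor that limits neuroblast growth, with 304.0 in replicate 1, 471.1 in replicate 2 and 727.6 in the list of both. The homeodomain gene pros, which ends neuroblast division, had 208.0, 130.4 and 342.8, while nerfin-1, esg and insc had between 81.5 and 105.3 in the list of both. The last 3 genes had no summit past the threshold in either replicate alone. In each of the lists the peak at brat was higher than that at pros.

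Of the 3 midline genes 2 held a summit in the list of both. There sim, the master regulator of midline cells, had 161.7, 158.4 and 323.6, and sli, the gene of the midline repellent Slit, had 122.2, 109.8 and 238.7, while vvl had no summit in the list of both and 1 in replicate 2 alone. Of the 4 columnar identity genes, Egfr had a highest peak of 143.4 and vnd of 85.5, and ind and Dr had none. Dr did have summits past the threshold in the lists of each replicate alone, 2 in replicate 1 and 1 in replicate 2. The 4 proneural genes ac, sc, l(1)sc and ase had none in any of the 3 thresholded lists examined. They are short genes, of 917 to 2430 bp, and none is in the longest length class. The roles were not compared at equal gene length. Of the epidermal and Wingless genes, pan had 105.2 and wg, arm and ovo had none. Replicate 1 alone gave 6 of the 24 genes, where 26.2% of all protein-coding genes held a summit. Replicate 2 alone gave 7, where 28.6% of all did. These shares cover genes of every length, while 12 of the 24 genes are in the longest class, so nothing is read from the counts beside them. A core was under the highest peak of 5 of the 10, beside 38.2% of all summits on the arms, whatever their height.

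Among 11 other genes with an HMG box, outside the Sox family, 6 held a summit, all of them in the longest length class, which 8 of the 11 belong to. That is 54.5% of the 11, beside 31.3% of all protein-coding genes and 57.5% of those in the longest class. Each replicate alone gave 5 of the 11, beside 26.2% of all protein-coding genes of every length in replicate 1 and 28.6% in replicate 2. The highest peak, with 555.0 in replicate 1, 427.7 in replicate 2 and 988.0 in the list of both, counts for HmgD and HmgZ alike because these neighbouring genes of abundant chromatin proteins overlap it. The genes bbx, Dsp1 and cic, the last a repressor downstream of receptor tyrosine kinases, had 503.3, 427.2 and 239.4 in the list of both, and pan had 105.2. A core was under the highest peak at cic and at none of the other 5 genes, of which HmgD and HmgZ share 1 peak. Of all summits on the arms, whatever their height, 38.2% had one. Among the Sox genes, SoxN, D, Sox14 and Sox102F had a core under their highest peak and Sox100B did not. Whether the lists differ in this was not tested.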

How the data were processed

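Peak lists in dm6 coordinates of 2 biological replicates of 1 group were used. Per the file headers (read-me texts), they were made from the replicates' alignments and a control alignment; no aligner, peak caller or depth is given in the sources used here. The deposited signal of a peak is the authors' value, used only within 1 list. The deposited score is the authors' scaled IDR with a ceiling of 1000, and the deposited ranked lists add the −log10 of the IDR, which the authors' threshold of 0.01 sets at 2.00 or more. The summit offset is as deposited.

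Summits were assigned to genes of Ensembl release 115, and sequence was taken from RefSeq's Release 6 genome, with Python 3.11.15, pandas 2.3.3, numpy 2.4.6 and scipy 1.17.1. Replicate values are those of the highest peak overlapping by 1 bp or more in each replicate's ranked list. The assignment was tested on simulated data. Positions below or above 0 are along the plus strand for motifs.

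The members, lists, motifs and alternatives were chosen with earlier results of these data known. Genes named are the 8 members, up to 5 members of other lists with the highest peaks with the remaining ones by name, the promoter peaks next to that of SoxN by signal, and genes sharing or nearest to a flank summit. No test was run, since the peaks had chosen the members.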

Additional observations from a re-analysis of the deposited data

How the results depend on the processing

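The count of Sox genes with a summit, 5, ranged from 3 to 5 when 1 replicate was left out, and their summits, 7, from 4 to 7. The height of the SoxN peak over the list's median, 13.6, ranged from 10.04 to 13.15, and the partner genes with a summit, 10, from 6 to 7. In each of these 4 the lower value was that of replicate 1 alone, while the intergenic flank summits, 10, were 9 in replicate 1 alone and 7 in replicate 2 alone. With an IDR of 0.001 on the ranked list of both replicates, 2 Sox genes with 2 summits passed, with 4 intergenic flank summits, a SoxN height of 9.14 times the median, a core in 100% of the 2 windows and 6 partner genes. The pooled list gave 6 genes and 8 summits. Other bounds upstream (500 bp and 2 kb) left 5 genes, and flanks of 5 and 20 kb gave 9 and 15 summits. The 11 other HMG-box genes gave 5 or 6 under every alternative tried. No paired analysis was possible because there is 1 group and no test. Peaks of low signal are limited by a depth that is unknown.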
